A study of Mus musculus with 35 samples.

Results

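The change that 5 days of doxycycline brought in the transcripts of NUP98-JARID1A leukemia cells was set against the change that the same treatment brought in NUP98-NSD1 leukemia cells. The comparison used 14 of the 35 samples of the series, all of them RNA libraries: 4 untreated and 3 doxycycline day 5 libraries of each model. They were chosen by their labels alone, and each gene's change in NUP98-NSD1 (day 5 minus untreated, on the log2 scale) was subtracted from its change in NUP98-JARID1A. All mice were C57BL/6. The genotype is given as regulatable expression of NUP98/JARID1A or of NUP98/NSD1, in a model made by transplantation, and cells were sorted from bone marrow for GFP and CD45.2. Treated mice received doxycycline at 4 mg/ml for 5 days. Of the 4 untreated libraries of each model, replicate 1 is titled day 3 and replicates 2 to 4 are titled day 5, and they were pooled as 1 group. The labels do not name the promoter that drives the fusions, the primary leukemias behind the transplants or the animals behind the libraries. The p-values therefore measure only the spread between these samples, which may be technical. In bulk RNA, fewer cells of a type and less RNA per cell cannot be told apart.

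NUP98 is a nucleoporin whose disordered start is joined, in a group of acute leukemias, to parts of chromatin regulators. JARID1A (also named KDM5A) contributes a PHD finger that reads methylated lysine on histone tails. NSD1 is a histone methyltransferase of lysine 36. Both kinds of fusion are known for holding Hoxa genes and Meis1 active and for keeping myeloid progenitors immature. In a switchable model, doxycycline turns the fusion transcript down, and genes that then fall, or genes of mature myeloid cells that then rise, can be followed over days. Setting the 2 models side by side asks which of these changes are shared and which differ in size or direction.

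The 14 libraries held 14752618 to 28903870 reads in genes, and the normalized values of a NUP98-JARID1A library summed to 17570918.4 to 20905019.0 at day 5, above the 15001691.2 to 16386670.5 of its untreated libraries. A chi-square comparison of reads between libraries of a group set 3 of them apart. NUP98-JARID1A day 5 replicate 1, the deepest library, had a chi-square per degree of freedom of 87.88 and 162.69 against the other two, which differed by 19.86. The untreated NUP98-JARID1A replicate 1, titled day 3, differed from its group by 31.81 to 57.74, and NUP98-NSD1 day 5 replicate 1 differed by 46.72 and 32.85 from the others of its group, which differed by 14.37. The counts over all genes, and some counts by list, are also given below with 1 of these libraries left out.

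Both fusion transcripts fell, to different residual levels. The NUP98-JARID1A transcript was at 3489, 3273, 3042 and 3096 normalized counts in its untreated libraries and at 100, 95.4 and 60.2 at day 5. The NUP98-NSD1 transcript was at 52599, 58498, 53629 and 54660 untreated and at 58.1, 40.9 and 40.3 at day 5. Neither feature had a read in the libraries of the other model. On the log2 scale the NUP98-JARID1A transcript fell by 5.26 and the NUP98-NSD1 transcript by 10.19. The eGFP transcript, which marks the sorted cells, fell from 11652 ± 1470 (SD, n = 4) to 323 ± 17.2 (n = 3) in NUP98-JARID1A and from 16473 ± 1021 to 16.8 ± 4.68 in NUP98-NSD1, and its change differed between the models by 4.73 ± 0.76 (standard error, adjusted p = 0.00011). The luciferase transcript did not pass the test of a difference (0.68, 95% interval -1.29 to 2.66), though it did without the control libraries (adjusted p = 0.0375).

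Cdk6, the cyclin-dependent kinase named in the title of the series, fell in both. It was at 16734, 16737, 16050 and 16562 in untreated NUP98-JARID1A and at 4926, 4029 and 3230 at day 5. In NUP98-NSD1 it went from 18425, 20166, 20062 and 21713 to 7386, 4309 and 4399. No day 5 library reached an untreated one. The log2 changes were -2.04 and -1.95, and their difference of -0.10 ± 0.33 had a 95% interval of -0.78 to 0.59 (adjusted p = 0.9). The mouse genes of the fusion parts, Nup98 (0.02, 95% interval -0.31 to 0.34), Kdm5a (0.11) and Nsd1 (-0.17), did not pass the test either.

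Across the 12682 genes tested, 1470 changed differently in the 2 models at a Benjamini-Hochberg adjusted p under 0.05, which is 11.6% of those tested. The change was higher in NUP98-JARID1A for 710 genes (5.6%) and lower for 760 (5.99%), with 400 and 390 of them differing by at least 2-fold. Within each model, 5236 genes (41.3%) changed after 5 days in NUP98-JARID1A, of which 2552 rose (20.1%) and 2684 fell (21.2%). In NUP98-NSD1, 3223 genes (25.4%) changed, of which 1709 rose (13.5%) and 1514 fell (11.9%). The median size of change was 0.39 (log2) in the first and 0.27 in the second, with 0.43, 0.40 and 0.52 in the 3 libraries of NUP98-JARID1A and 0.29, 0.32 and 0.28 in those of NUP98-NSD1. Both changes had a Pearson r of 0.56 across the 12682 genes, which are not independent replicates. The counts depended on the scaling: with total-count scaling, chosen after seeing the data, the median difference over all genes went from -0.03 to -0.16 and the split was 475 higher and 916 lower. They also moved with 1 library: without NUP98-JARID1A day 5 replicate 1, 930 genes were higher and 1146 lower. Without untreated NUP98-JARID1A replicate 1 the counts were 605 and 683, and without NUP98-NSD1 day 5 replicate 1 they were 580 and 636.

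**Figure D1:**
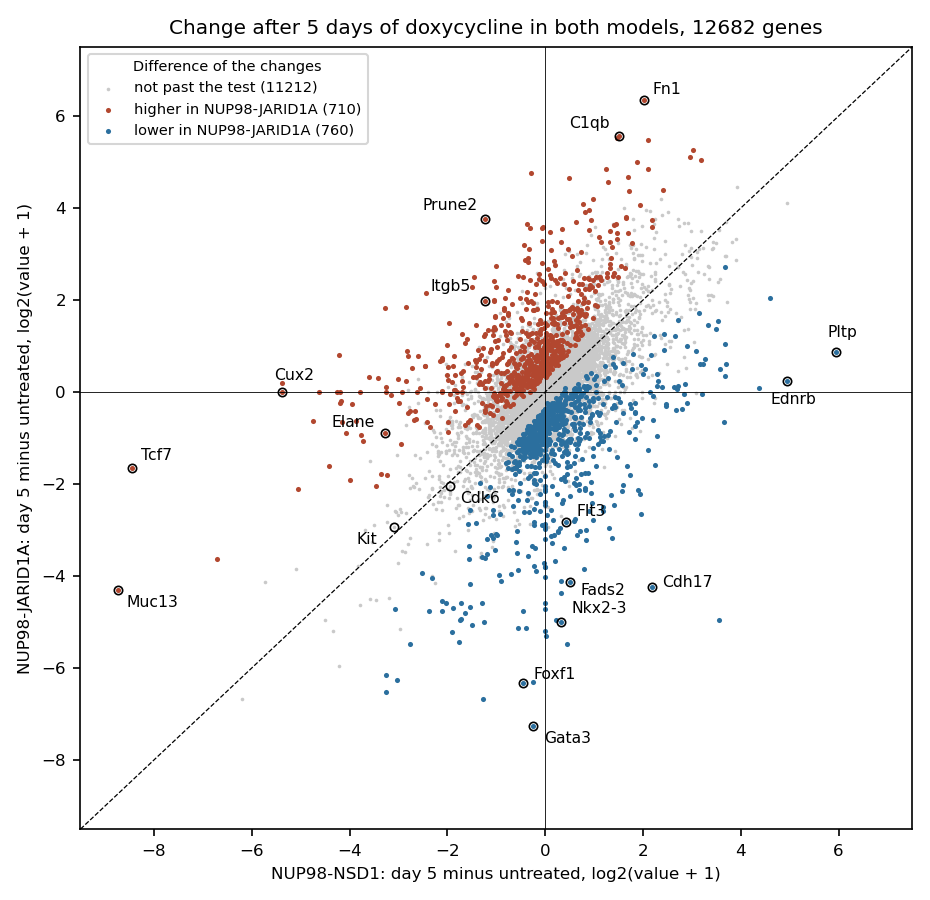
Each point is 1 of 12682 genes, placed by its change at day 5 in NUP98-NSD1 (x axis) and in NUP98-JARID1A (y axis), both as log2(normalized count + 1) against the model's own untreated libraries. The 710 genes higher in NUP98-JARID1A are red, the 760 lower ones are blue, the dashed line marks equal change and circled genes are named in the text. Cdk6 and Kit lie near the line, Tcf7 and Muc13 at the far left, Gata3 and Foxf1 at the bottom.

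Most of the differing genes were called in 1 model only, and a missing call does not show that the other model stayed unchanged. Of the 710 higher genes, 327 rose in NUP98-JARID1A without a call in NUP98-NSD1, 175 fell in NUP98-NSD1 without a call in NUP98-JARID1A, 116 rose in both, 27 fell in both and 49 rose in the first and fell in the second. Of the 760 lower genes, 450 fell in NUP98-JARID1A alone by this count, 119 rose in NUP98-NSD1 alone, 98 fell in both, 24 rose in both and 57 fell in the first and rose in the second. The remaining 16 and 12 passed in neither model. Genes that changed together were common too: 1144 of all tested rose in both models and 868 fell in both.

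The 2 leukemias already differed before treatment. The untreated groups differed in 7432 genes (58.6%) and the day 5 groups in 6750 (53.2%). Among the 710 higher genes, 483 were lower in untreated NUP98-JARID1A than in untreated NUP98-NSD1, and for 288 the day 5 groups no longer passed the test of a difference. Among the 760 lower genes these counts were 491 and 300. The untreated levels enter the difference of changes with the opposite sign, so these counts are tied to the definition and are given as a description. Both untreated means were at least 100 in 448 of the higher and 464 of the lower genes. The lower of both means was under 10 in 113 and 142, beside 2001 of the 12682 genes tested. For such genes the fitted change depends on the 1 added before the logarithm.

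Genes that rose in NUP98-JARID1A and fell in NUP98-NSD1 included surface and cytoskeletal genes. Itgb5, the beta subunit of an integrin that binds vitronectin (Entrez 16419, chromosome 16, 33829665 to 33949338 in GRCm38), was at 339, 423, 489 and 432 in untreated NUP98-JARID1A and at 1418, 1556 and 1968 at day 5. In NUP98-NSD1 it went from 1440, 1648, 1550 and 1609 down to 525, 857 and 650. The groups did not overlap in either model. Its log2 changes were 1.97 and -1.23, a difference of 3.20 ± 0.21 (adjusted p = 2.52e-11). Dmkn, which encodes the secreted protein dermokine, went from 7.74 to 23.0 up to 66.3 to 108 in NUP98-JARID1A and from 550 to 790 down to 60.9 to 238 in NUP98-NSD1 (4.60 ± 0.48). Rai14, an actin-associated gene, went from 9.10 to 21.7 up to 54.6 to 103 and from 494 to 616 down to 257 to 299 (3.46 ± 0.30). Neither gene's groups overlapped. Prune2 rose from 7.30 to 19.9 up to 127 to 226, and in NUP98-NSD1 it was at 163, 159, 160 and 115 untreated and at 159, 36.2 and 42.3 at day 5, where replicate 1 stayed among the untreated values (5.00 ± 0.50). Pmp22, a myelin membrane gene, and Mt2, a metallothionein gene, differed by 5.11 and 4.69 from low levels in NUP98-JARID1A, at 0 to 4.02 and 0 to 11.1 in its 7 libraries.

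The opposite pattern, a fall in NUP98-JARID1A and a rise in NUP98-NSD1, included Cdh17, the intestinal LI-cadherin. Cdh17 (Entrez 12557) was at 359, 461, 479 and 662 untreated and at 53.5, 15.1 and 17.8 at day 5 in NUP98-JARID1A. In NUP98-NSD1 it was at 20.5, 43.2, 25.9 and 25.1 untreated and at 394, 85.6 and 62.0 at day 5. The groups did not overlap in either model, and the day 5 rise in NUP98-NSD1 was steepest in replicate 1. The difference was -6.41 ± 0.84 (adjusted p = 7.02e-06), and -5.61 without that library (adjusted p = 2.79e-05). Its neighbour Gem, a small GTPase gene that inhibits calcium channels, went from 60.7 to 120 down to 5.57 to 12.1 in NUP98-JARID1A, and in NUP98-NSD1 from 13.7 to 45.1 to 166, 37.1 and 47.2, again with replicate 1 on top and here with overlapping groups (-4.53 ± 0.66, and -3.88 without that library). Gem ends 43163 bases before Cdh17 on chromosome 4, with no tested gene between them. Itgb5 and Muc13, both higher in NUP98-JARID1A, were likewise neighbours, 9735 bases apart on chromosome 16 with no tested gene between. Of the 100 named genes past the test with a position, 7 pairs lay within 100000 bases, among them the C1q genes, Hoxa2 with Hoxa7, and Hoxb5os with Hoxb6. The named genes came partly from lists that hold such gene clusters, and no count over all genes is given, so the number is a description. Gcsam, a signalling adaptor of germinal centre B cells, fell from 19.9 to 59.0 down to 0 to 0.608 in NUP98-JARID1A and went from 0 to 1.67 up to 7.53, 43.8 and 7.87 in NUP98-NSD1 (-8.52). P2ry10, a lysophospholipid receptor gene, and Cfap44, a cilium gene, had differences of -4.60 and -4.14 at 31.3 normalized counts or fewer in every library.

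A further set was higher in NUP98-JARID1A through a fall in NUP98-NSD1. Tcf7, a transcription factor of the Wnt pathway (Entrez 21414), was at 4457, 6092, 6464 and 6939 in untreated NUP98-NSD1 and at 12.9, 24.7 and 12.8 at day 5, which is 356-fold lower by the means. In NUP98-JARID1A it was at 19.2, 11.7, 23.0 and 25.2 untreated and at 1.22, 12.1 and 7.80 at day 5, with overlapping groups. All 7 NUP98-JARID1A libraries lay far below untreated NUP98-NSD1, and the difference was 6.78 ± 0.79 (adjusted p = 1.32e-06). Muc13, a transmembrane mucin gene, fell in both, from 3877 to 4980 down to 7.87 to 13.3 in NUP98-NSD1 and from 31.6 to 67.7 down to 0 to 2.43 in NUP98-JARID1A, with a difference of 4.41 ± 0.84 (adjusted p = 0.000752, and 0.172 by edgeR). Cux2, a homeobox gene, fell from 327 to 467 down to 2.85 to 32.3 in NUP98-NSD1 and was at 1.0 to 5.8 in every NUP98-JARID1A library (5.36). Near 0 in NUP98-JARID1A, no fall of Cux2 could be measured. The low untreated levels of Tcf7 and Muc13 there also bounded how far they could fall. Tnf, the inflammatory cytokine gene, was at 2139, 2172, 2024 and 2366 in untreated NUP98-NSD1 and at 474, 347 and 368 at day 5. Its NUP98-JARID1A values were 194, 355, 443 and 393 untreated and 376, 456 and 693 at day 5. Here the NUP98-JARID1A groups overlapped (0.57, adjusted p = 0.102) while those of NUP98-NSD1 did not, and the difference was 3.03 ± 0.39 (adjusted p = 5.78e-06). Gpnmb, a membrane glycoprotein of macrophages, fell in NUP98-NSD1 from 2318 to 3795 to 1708, 215 and 167, with replicate 1 the highest (3.73, and 4.79 without it). Lhfpl2 differed by 3.38, with 1151 to 1475 against 141 to 346 in NUP98-NSD1.

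Other genes were higher through a rise in NUP98-JARID1A. Itsn1, an endocytic scaffold gene, went from 11.1, 25.3, 12.5 and 20.3 to 153, 127 and 167, while NUP98-NSD1 held 198 to 249 untreated and 181 to 195 at day 5 (difference 3.42 ± 0.37). Fblim1, a focal adhesion adaptor gene, went from 13.1 to 119 up to 492 to 732, against 299 to 429 and 299 to 359 (3.63 ± 0.71). Fn1, which encodes fibronectin, went from 13.1 to 64.1 up to 2499, 2497 and 4286. Its NUP98-NSD1 values were 1176, 385, 1310 and 212 untreated and 15447, 967 and 957 at day 5, so that 1 library held the high value and the groups overlapped. The difference of 4.31 ± 1.01 (adjusted p = 0.00488) was 5.65 without that library, and with the 14 libraries fitted alone its adjusted p was 0.0607.

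Among the genes lower in NUP98-JARID1A, several transcription factor genes fell that had almost no reads in NUP98-NSD1. Gata3, a regulator of T and innate lymphoid cells (Entrez 14462), was at 571, 433, 642 and 375 untreated and at 4.26, 2.01 and 1.11 at day 5, 205-fold lower by the means. Every NUP98-NSD1 library was at 0.939 or below. Foxf1, a forkhead factor of the embryonic mesoderm (Entrez 15227), was at 2570, 2157, 2896 and 2555 and then at 39.5, 19.1 and 37.9, and at 0.893 or below in NUP98-NSD1. Nkx2-3, a homeobox gene of spleen and gut, was at 903 to 1190 and then at 22.1 to 38.3, and at 0.952 or below in NUP98-NSD1. Their differences were -7.03 ± 0.44, -5.87 ± 0.57 and -5.32 ± 0.45. Near 0 in NUP98-NSD1 no fall could be measured, and edgeR's quasi-likelihood test on the reads gave adjusted p of 0.992, 0.971 and 0.0631. Antxr1, an anthrax toxin receptor gene (-3.73), Ikzf3, a lymphoid zinc finger factor (-4.03), and Otogl (-3.37) were of the same kind, with 9.69 or fewer normalized counts in NUP98-NSD1 for Antxr1 and Otogl and 15.2 or fewer for Ikzf3. Over the 14 fits that each left out 1 library, the adjusted p of Otogl ran from 0.00407 to 0.109, and it passed 0.05 without NUP98-NSD1 day 5 replicate 1 or 3, untreated NUP98-NSD1 replicate 4 or NUP98-JARID1A day 5 replicate 3.

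Other lower genes were present in both models. Fads2, the delta-6 fatty acid desaturase (Entrez 56473), was at 708, 778, 892 and 1496 in untreated NUP98-JARID1A and at 60.2, 60.3 and 37.9 at day 5. In NUP98-NSD1 it was at 168, 255, 199 and 246 and then at 215, 271 and 493, with overlapping groups. Its fall of 18.3-fold by the means stood against a change of 0.51 (log2, adjusted p = 0.224), a difference of -4.65 ± 0.42 (adjusted p = 1.34e-08). Bcl11a, a zinc finger repressor of lymphoid and erythroid cells, fell from 1793 to 2730 down to 252 to 284 and was at 239 to 330 and then 156, 770 and 277 in NUP98-NSD1 (-3.29, and -2.66 without NUP98-NSD1 day 5 replicate 2). Hmga2, a chromatin architecture gene, fell from 556, 261, 455 and 279 to 26.1, 36.2 and 53.5, and NUP98-NSD1 was at 20 to 43.2 throughout (-3.43). Aff3, a nuclear regulator of transcription elongation, was at a like level untreated, 190 to 416 and 197 to 241, and fell to 5.02 to 7.29 in NUP98-JARID1A and to 32.3, 122 and 51.2 in NUP98-NSD1 (-3.30). Snn (-3.75) and Klrb1c, an NK cell receptor gene (-3.26), fell to 17.0 or below in NUP98-JARID1A. The difference of Klrb1c, at 28.2 or below in NUP98-NSD1, did not pass in edgeR (adjusted p = 0.216) or DESeq2 (0.0625). Pltp, the phospholipid transfer protein gene, and Ednrb, an endothelin receptor gene, were lower through a rise in NUP98-NSD1. Pltp was at 506, 1042, 1036 and 1360 untreated and 1258, 1534 and 2519 at day 5 in NUP98-JARID1A, and at 0.893 to 5.85 and then 93.6, 496 and 331 in NUP98-NSD1. Ednrb went from 0.835 to 4.69 up to 78.6 to 175 in NUP98-NSD1. Their differences were -5.09 ± 0.63 and -4.70 ± 0.65, and their NUP98-JARID1A groups overlapped.

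**Figure D2:**
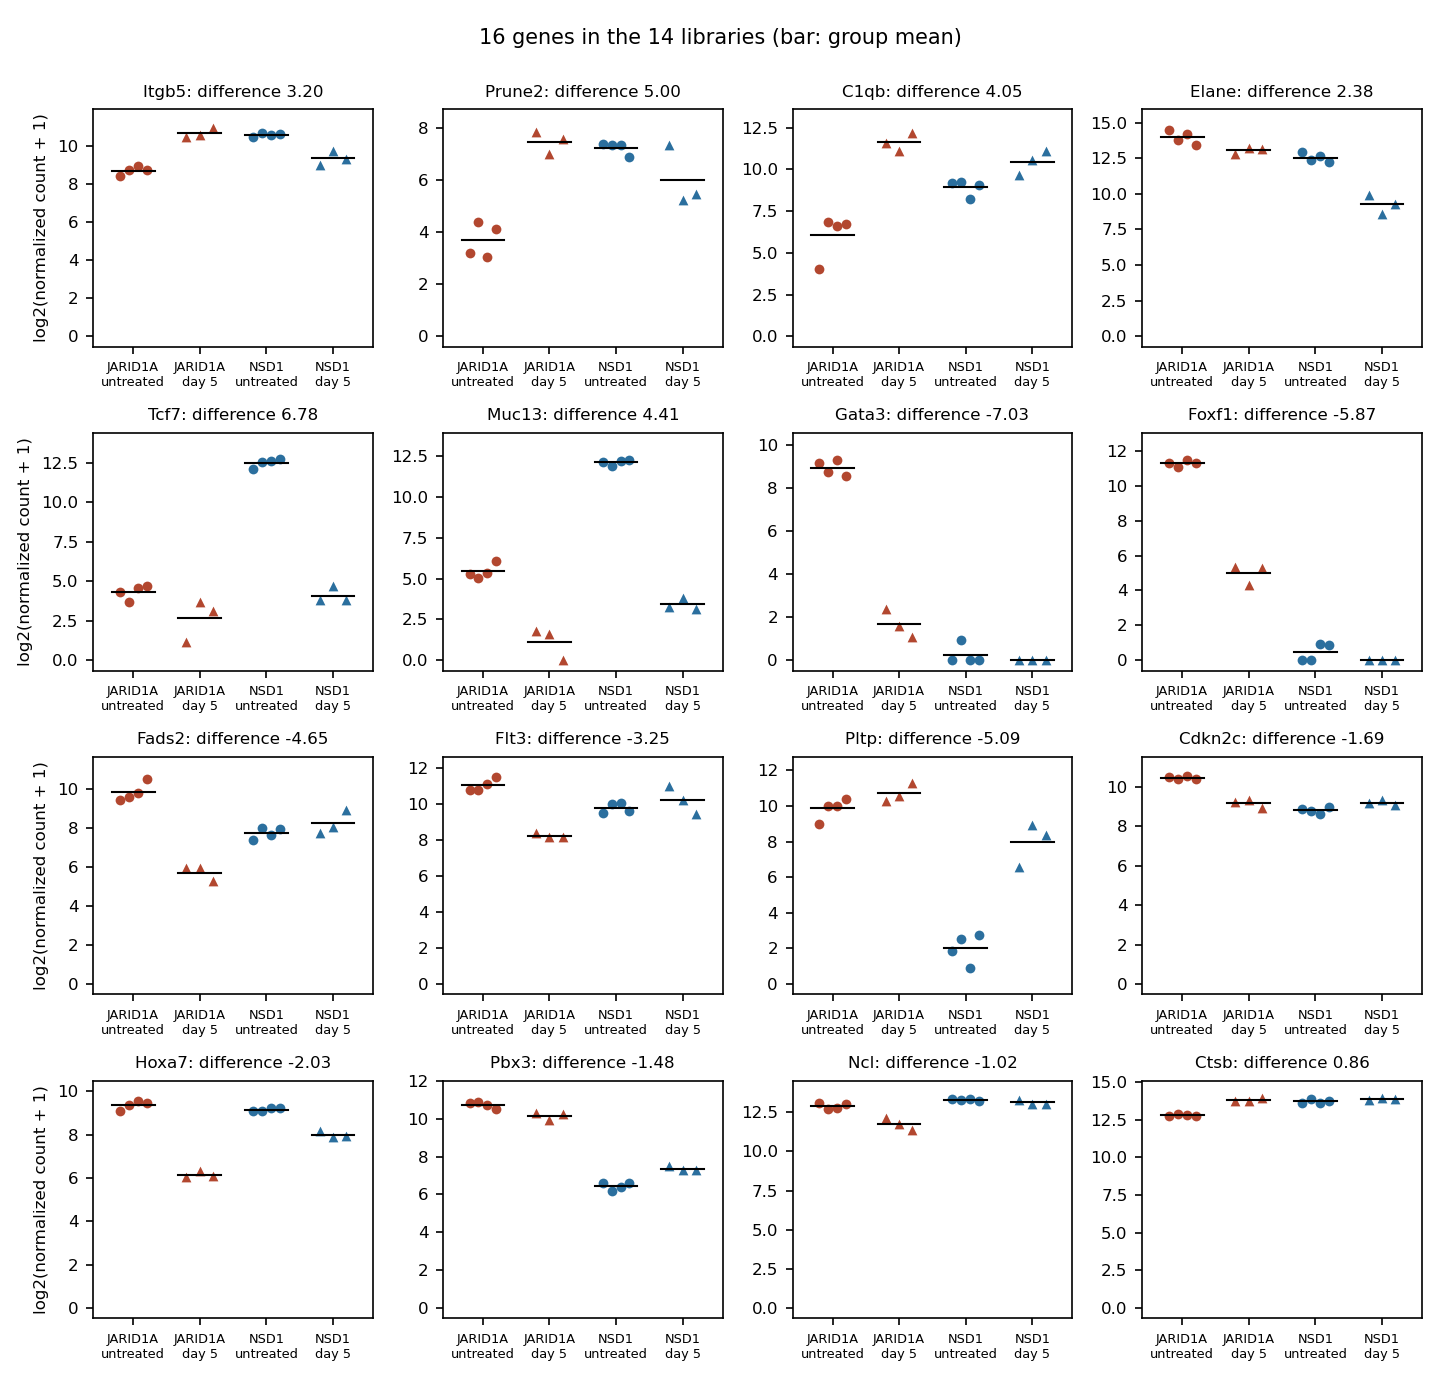
Values of 16 genes in the 14 libraries as log2(normalized count + 1); circles are untreated and triangles day 5 libraries, red for NUP98-JARID1A and blue for NUP98-NSD1, and bars are group means. Itgb5 runs in opposite directions in the 2 models, Tcf7 falls from a high level in NUP98-NSD1 alone, and Gata3 and Foxf1 fall where NUP98-NSD1 has nearly no reads.

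The Hox genes and their cofactors fell in both models, and the front of the Hoxa cluster fell further in NUP98-JARID1A. Hox proteins set positional identity in the embryo and drive self-renewal in myeloid leukemia, with Meis1 and Pbx proteins as DNA-binding partners. Of 18 members tested, 8 were lower and 3 higher in NUP98-JARID1A, beside 5.99% and 5.6% of all genes, with a median difference of -0.57 against -0.03 over all genes. In NUP98-JARID1A 10 fell and 2 rose (median -1.61), and in NUP98-NSD1 13 fell and 1 rose (median -1.58). Of all genes, 21.2% fell and 20.1% rose in the first, and 11.9% fell and 13.5% rose in the second. Hoxa7 was at 543, 660, 744 and 693 and then at 65.0, 78.4 and 68.0 in NUP98-JARID1A. In NUP98-NSD1 it started at 551, 543, 596 and 593 and stood at 282, 233 and 243 at day 5. The untreated ranges overlapped and the day 5 ranges did not, and the difference was -2.03 ± 0.32 (adjusted p = 8.38e-05).

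Hoxa2, Hoxa3, Hoxa4, Hoxa5 and Hoxa6 had differences of -3.29, -3.19, -3.22, -3.22 and -2.56. Hoxa5 went from 638 to 809 down to 15.6 to 32.2 in NUP98-JARID1A and from 258 to 324 down to 82.9 to 101 in NUP98-NSD1. Hoxa4, at low levels, fell from 20.9 to 34.4 down to 1.0 to 1.82 in the first and was at 12.5 to 16 and 8.61 to 16.2 in the second. Hoxa10 differed less (-1.03 ± 0.27, adjusted p = 0.0131). Hoxa9, the best known leukemia gene of the cluster, went from 1375, 1348, 1710 and 1774 to 176, 182 and 192, and from 1282, 1240, 1381 and 1355 to 354, 242 and 290. Neither model's groups overlapped, and the difference of -0.90 did not pass the test (95% interval -2.57 to 0.77, adjusted p = 0.551). It passed in 4 of 26 alternative settings. These were the 14 libraries fitted alone (adjusted p = 0.00935), no control libraries (0.0044), DESeq2 (0.00653) and a replicate block (0.0445). Meis1 fell by 2.27 and 2.15 with a difference of -0.12 (95% interval -1.41 to 1.17). Pbx3, a Hox cofactor gene, was at 1833, 1913, 1687 and 1471 and then at 1288, 969 and 1234 in NUP98-JARID1A, against 98.4, 72.3, 84.0 and 96.9 and then 181, 155 and 159 in NUP98-NSD1. It fell in the first and rose in the second (-1.48 ± 0.23). Hoxb5 (2.26) and Hoxb6 (4.26) were among the higher members, and both fell in NUP98-NSD1. They were at 2.09 or below in NUP98-JARID1A libraries, where no fall could be measured. The difference of Hoxb6 did not pass in edgeR (adjusted p = 1.0) or DESeq2 (0.556). Hoxb6 lies within the span of Hoxb5os, a long RNA that also fell in NUP98-NSD1, from 313 to 373 down to 16.2 to 29.1. The difference of Hoxb5os (3.79), with no read in any NUP98-JARID1A library, did not pass in edgeR (adjusted p = 1.0) or DESeq2 (0.114). The sources used here do not say if counting took account of strand, so reads of these 2 genes cannot be told apart.

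**Figure D3:**
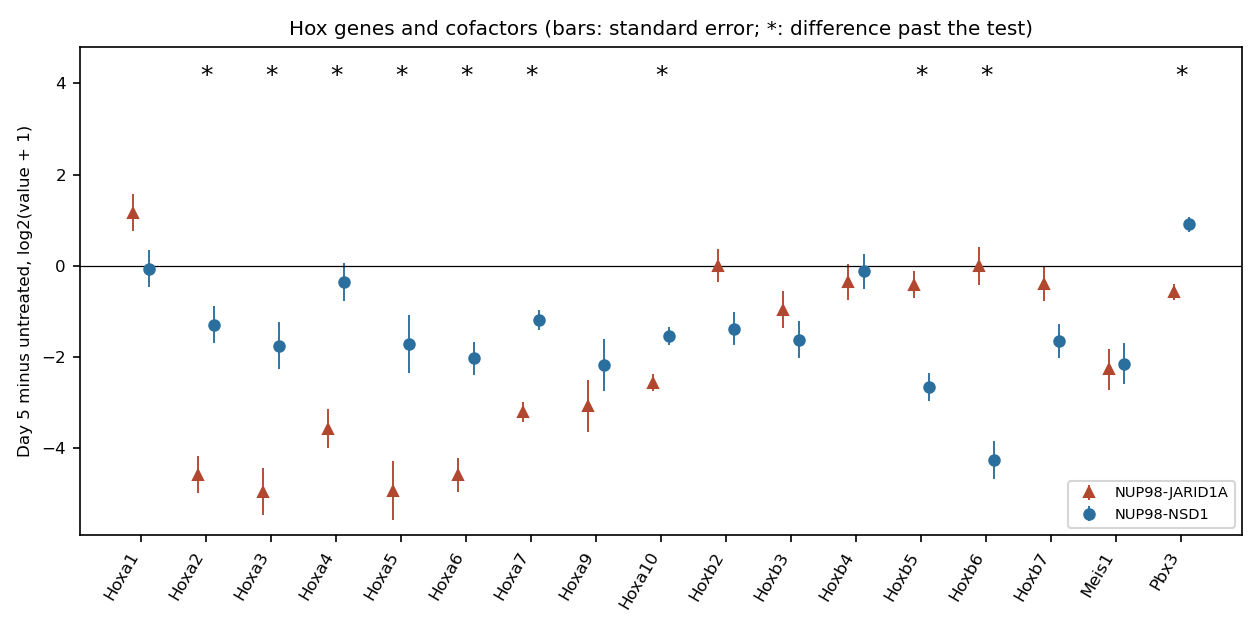
Change at day 5 (log2(normalized count + 1) against untreated libraries) of Hox and cofactor genes in NUP98-JARID1A (red triangles) and NUP98-NSD1 (blue circles), with standard errors. Asterisks mark genes whose change differed. Hoxa2 to Hoxa7 lie lower in NUP98-JARID1A, Hoxb5 and Hoxb6 lower in NUP98-NSD1, and Meis1 alike in both.

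Genes of progenitors and leukemia stem cells fell in both models (17 of 25 in NUP98-JARID1A with 1 rise, 13 in NUP98-NSD1 with none). Their changes differed in 8, with 2 higher (8.0%, beside 5.6% of all genes) and 6 lower (24.0%, beside 5.99%). The median difference was -0.35. Flt3, the receptor of a progenitor growth factor, was at 1713, 1760, 2185 and 2897 and then at 328, 280 and 281 in NUP98-JARID1A. In NUP98-NSD1 it was at 726, 1030, 1033 and 783 untreated and at 2057, 1180 and 696 at day 5, where the groups overlapped. The difference was -3.25 ± 0.56 (adjusted p = 0.000246). Angpt1, a ligand of the stem cell receptor Tie2, went from a mean of 473 to 6.06 and from 25.5 to 2.35 (-2.91). Adgrg1, an adhesion receptor of stem cells, went from 4300 to 276 and from 577 to 101 (-1.43). Igf2bp3, an RNA-binding gene of fetal cells, was lower as well (-0.59), as was Slc22a3, a cation transporter gene with no read in any NUP98-JARID1A day 5 library (-4.43). Muc13 and Egfl7 (1.59) were the higher members. Kit, the stem cell factor receptor, was not among those that differed: it fell from 2069 to 265 and from 698 to 81.3 by the means, with a difference of 0.16 (95% interval -0.94 to 1.26).

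Primary granule genes, which are made by promyelocytes and stored as proteases and peroxidase, fell further in NUP98-NSD1. Of 11, 6 were higher (54.5%, beside 5.6% of all genes) and none lower (median 1.17). In NUP98-NSD1 10 fell (beside 11.9% of all genes) and in NUP98-JARID1A 5 (beside 21.2%). Elane, neutrophil elastase, was at 22697, 13927, 18779 and 10808 and then at 7209, 9604 and 9096 in NUP98-JARID1A. In NUP98-NSD1 it went from 7733, 5394, 6352 and 4761 to 982, 390 and 615. The day 5 values did not overlap the untreated ones in either model, and the changes of -0.89 (adjusted p = 0.0671) and -3.27 differed by 2.38 ± 0.55 (adjusted p = 0.00445). Ms4a3, a marker of granulocyte-monocyte progenitors, was at 818 to 1404 and 1377 to 2285 in NUP98-JARID1A, and fell from 1859 to 2655 to 1639, 641 and 843 in NUP98-NSD1 (1.90). Ctsc, the protease that activates granule enzymes, rose in both, from 3428 to 15331 and from 8901 to 18039 by the means (1.17). Nkg7 (1.77), Srgn (0.91) and Serpinb1a (0.87) completed the 6. Mpo, myeloperoxidase, had a difference of 1.67 that did not pass (95% interval 0.43 to 2.91, adjusted p = 0.0733). It passed in 6 of 26 alternative settings. Among them were the 14 libraries fitted alone (adjusted p = 0.0139), no control libraries (0.0014), edgeR (0.0455), DESeq2 (0.0196) and a replicate block (0.0341).

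Secondary and tertiary granule genes, made by later neutrophil stages, rose in both models, with medians of 1.48 in NUP98-JARID1A and 1.45 in NUP98-NSD1. Of 28, 19 rose in the first (beside 20.1% of all genes) and 15 in the second (beside 13.5%). None of the 28 differed by limma, 3 had an unadjusted p under 0.05, and edgeR and DESeq2 each called 2. Ltf, lactoferrin, went from a mean of 18385 to 124386 and from 2855 to 23191 (difference -0.23, 95% interval -1.88 to 1.41). Lyz2, lysozyme, rose by 1.48 and 1.15 (difference 0.32, 95% interval -0.46 to 1.11).

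Of 30 monocyte and macrophage genes tested, 12 were higher (40.0%, beside 5.6% of all genes) and 2 lower (6.67%, beside 5.99%). The median difference was 0.97. In NUP98-JARID1A 24 of them rose (beside 20.1% of all genes) and in NUP98-NSD1 23 (beside 13.5%). C1qb, a chain of the first complement component made by macrophages, was at 15.2, 116, 97.0 and 105 and then at 3011, 2207 and 4663 in NUP98-JARID1A. In NUP98-NSD1 it was at 582, 605, 299 and 531 and then at 809, 1483 and 2220. The day 5 values lay above the untreated ones in both, by 5.56 and by 1.51 (adjusted p = 0.0986), a difference of 4.05 ± 0.94 (adjusted p = 0.00456). Untreated replicate 1 was the lowest library, and without it the difference was 3.37 (adjusted p = 0.0098). C1qc gave 4.08 (3.34 without that library) and C1qa 3.38 (adjusted p = 0.042, and 0.0376 to 0.114 over the fits that each left out 1 library). Apoe, the lipid carrier of macrophages, was at 615, 862, 862 and 856 and then at 10010, 8103 and 12226, against 41.9, 54.4, 44.7 and 25.9 and then 161, 96.1 and 88.5 in NUP98-NSD1. All groups were apart, and the difference was 2.21 ± 0.40 (adjusted p = 0.00037). Vcan (2.73), Trem2 (2.18), S100a4 (1.57), Ctss (1.36) and Cx3cr1 (1.13) rose in both and further in NUP98-JARID1A, and Ly6c2, a marker of inflammatory monocytes, fell in NUP98-NSD1 (difference 1.44). Adgre1, which encodes the macrophage antigen F4/80, rose in both and further in NUP98-NSD1 (-0.62). Pltp was the other lower member, and Fn1 and Gpnmb were among the higher ones. Without the untreated NUP98-JARID1A replicate 1, the list had 9 higher and 1 lower, with a median of 0.74.

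Of 24 myeloid transcription factors, 3 were higher (12.5%, beside 5.6% of all genes) and 1 lower (4.17%, beside 5.99%). The median difference was 0.38. Klf4, a factor of monocyte differentiation, went from 46.5, 361, 206 and 364 to 1553, 1856 and 2142 in NUP98-JARID1A and from 783 to 1219 to 2109 to 3468 in NUP98-NSD1. Its difference of 1.95 (adjusted p = 0.0219) was 1.28 without the low untreated replicate 1, and over the fits that each left out 1 library the adjusted p ran from 0.00641 to 0.063, above 0.05 without day 5 replicate 3 of either model. Irf8, which directs progenitors to monocytes and dendritic cells, rose in NUP98-JARID1A from 1483 to 2352 to 2788 to 3205 and was at 4792 to 6663 and 4096 to 4973 in NUP98-NSD1 (0.86 ± 0.20). Mitf (0.81) rose in NUP98-JARID1A. Irf4 went up further in NUP98-NSD1, from 89.0 to 124 to 415, 1427 and 871 (-1.91, adjusted p = 0.0123, and 0.0537 without replicate 2). Spi1, which encodes the master myeloid factor PU.1, rose by 0.91 and 0.80 (difference 0.11, 95% interval -0.55 to 0.77).

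Of 14 dendritic cell genes tested, 6 were lower in NUP98-JARID1A (42.9%, beside 5.99% of all genes) and none was higher (median -0.80). Siglech, a receptor of plasmacytoid dendritic cells, was at 38.4, 82.2, 65.7 and 300 and then at 18.2, 9.04 and 10 in NUP98-JARID1A. NUP98-NSD1 had 58.2, 46.9, 54.5 and 35.9 and then 61.4, 153 and 40.3, with overlapping groups (-3.39 ± 0.78). Cd209a, a lectin of monocyte-derived dendritic cells, was at 115 to 196 and 172 to 194 in NUP98-JARID1A and went from 26.7 to 67.6 to 108, 680 and 404 in NUP98-NSD1 (-2.58). Cd300c (-3.77), Flt3, Itgax (-1.68) and Tcf4 (-0.70) were the others. Of 11 MHC class II genes, which present antigen to T cells, the peptide-loading genes H2-Ob (-3.69) and H2-Oa (-2.55) were lower and none was higher. The 2 are 18.2% of the list, beside 5.99% of all genes. H2-Ob went from 138 to 154 down to 21.1 to 29.8 in NUP98-JARID1A and from 53.6 to 72.7 up to 98.0, 222 and 129 in NUP98-NSD1. H2-Aa, a chain of the classical molecule, rose by 3.53 and 3.56, with 516, 6932 and 4131 in the day 5 libraries of NUP98-NSD1 (difference -0.03, 95% interval -2.02 to 1.96).

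NUP98-NSD1 day 5 replicate 2 was high in many of these genes. It had the highest value of the 14 libraries in 12 of 16 B cell, 7 of 13 erythroid, 6 of 11 MHC class II and 5 of 14 dendritic cell genes. The summed B cell level was 3300 there, against 1579 and 1930 in the other day 5 libraries of NUP98-NSD1 and 1445 to 1561 in NUP98-JARID1A at day 5. The median change of the B cell list was 2.47 in that library and -0.12 and -0.06 in the others. In replicates 1, 2 and 3 it was 0.67, 2.31 and 1.58 for MHC class II and 0.03, 1.48 and 0.95 for dendritic cell genes. In these 2 lists replicate 1 was the low library and replicate 3 lay above it. The part of replicate 2 in the dendritic cell, MHC class II and B cell results was not tested as a cause. Without it, 5 dendritic cell genes were lower with a median of -0.31, H2-Ob was at -3.36 and H2-Oa at -2.05 (adjusted p = 0.036).

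**Figure D4:**
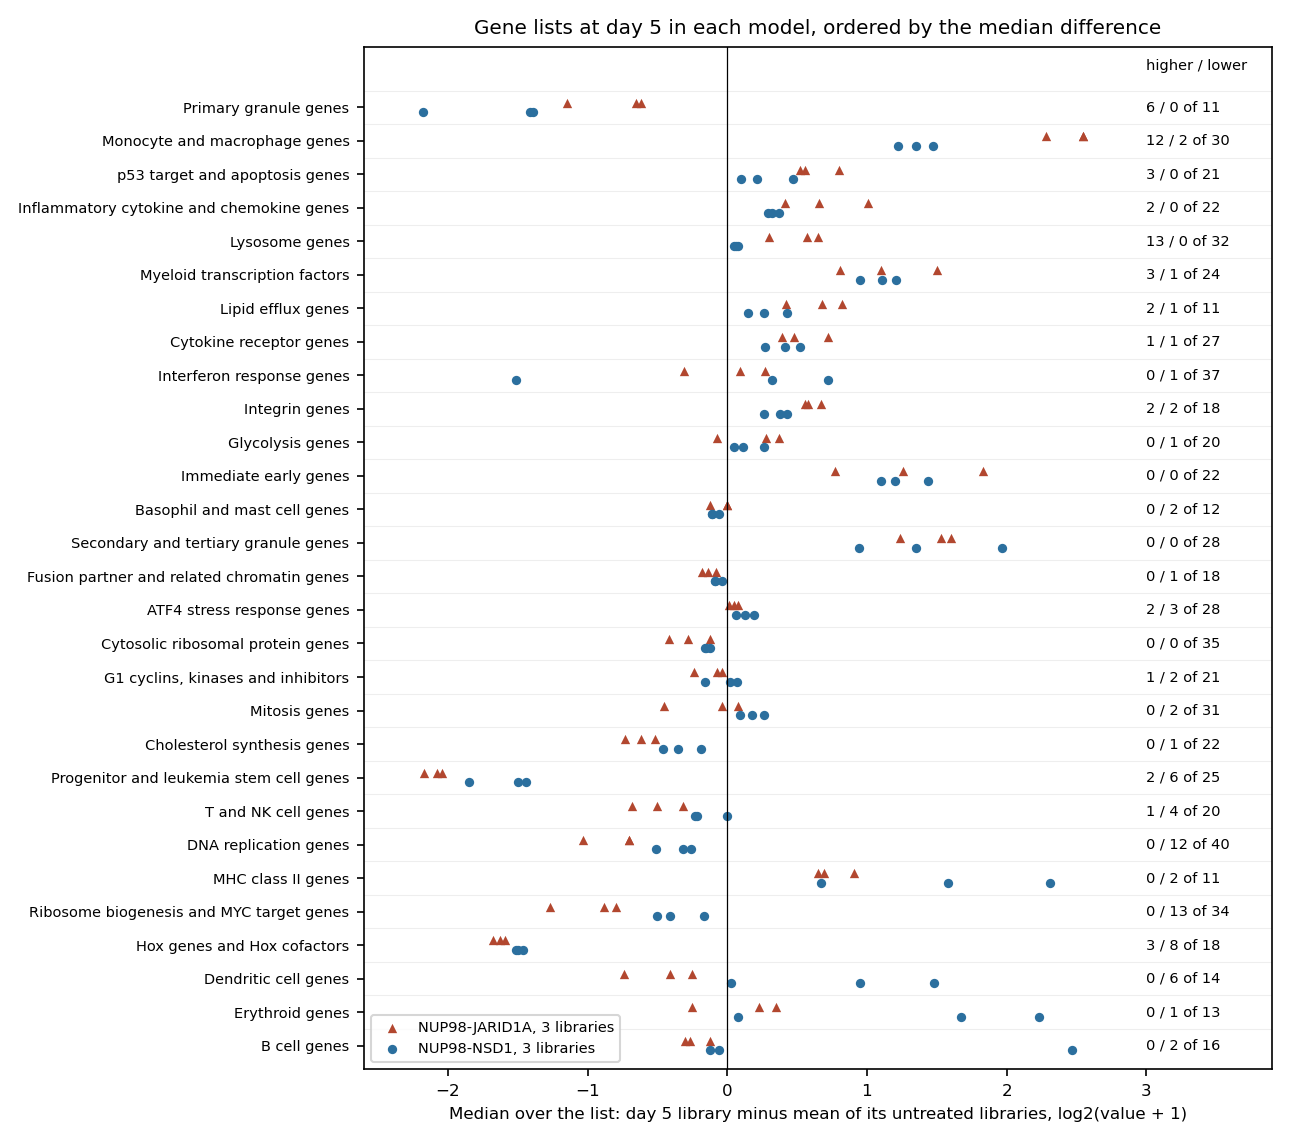
Median change of each gene list with 10 or more tested members in each day 5 library against the model's untreated mean, on the log2(normalized count + 1) scale, with red triangles for NUP98-JARID1A and blue circles for NUP98-NSD1. Lists are ordered by their median difference, and the numbers at the right give members higher and lower of those tested. The 3 triangles lie right of the 3 circles for primary granule (6 higher of 11) and lysosome genes (13 of 32), and left of them for ribosome biogenesis (13 lower of 34) and dendritic cell genes (6 of 14).

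Of 34 ribosome biogenesis and MYC target genes, which build and process ribosomal RNA, 13 were lower (38.2%, beside 5.99% of all genes) and none higher. The median difference was -0.56, and all 34 differences were below 0. In NUP98-JARID1A 33 fell (median -0.98, beside 21.2% of all genes falling) and in NUP98-NSD1 14 (median -0.35, beside 11.9%). Ncl, the nucleolar protein nucleolin, was at 8960, 6861, 7110 and 8307 and then at 4458, 3442 and 2599 in NUP98-JARID1A. NUP98-NSD1 had 10473, 9965, 10290 and 9661 and then 10182, 8460 and 8566, with overlapping groups. The changes of -1.18 and -0.16 differed by -1.02 ± 0.19 (adjusted p = 0.000701). Gar1, a small nucleolar RNA partner (-0.97), Mybbp1a (-0.91), Srm, spermidine synthase (-0.86), Nolc1 (-0.78), Nhp2 (-0.67), Apex1, a DNA repair endonuclease gene (-0.50), Nop2 (-0.49) and Pes1 (-0.42) were among the other members. Myc itself fell by 1.48 and 0.96 without passing the test of a difference (-0.52, 95% interval -0.92 to -0.12, adjusted p = 0.0812). It passed in 3 of 26 alternative settings, among them total-count scaling (adjusted p = 0.0427). None of 35 cytosolic ribosomal protein genes differed by limma, edgeR or DESeq2, and 2 had an unadjusted p under 0.05 in limma (median -0.08). The count of 13 was 7 without NUP98-NSD1 day 5 replicate 1 and 18 without NUP98-JARID1A day 5 replicate 1. With total-count scaling the median was -0.69, beside -0.16 over all genes.

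The window from 250 bases before to 50 after each RefSeq start site (GRCm38.p6) was searched for the E-box CACGTG, which MYC and the lysosomal regulator TFEB are known to bind and which reads the same on both strands. It lay in 4 of 11 windows (36.4%) of called ribosome biogenesis members and in 2 of 21 (9.52%) of the members not called. It lay in 7.15% of all 32851 windows and in 9.83% of those of tested genes. A match describes letters and not a bound site. The 2 stretches below are the called members of this list whose motif could be shown outside exons, on the gene's strand with the E-box in capitals. Nop2 is shown at chr6:125131798-125131853 and Apex1 at chr14:50924900-50924948.
Nop2: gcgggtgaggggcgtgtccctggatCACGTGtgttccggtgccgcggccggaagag
Apex1: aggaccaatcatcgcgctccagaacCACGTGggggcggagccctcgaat

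Of 40 DNA replication genes, 12 were lower and none was higher (median -0.41). In NUP98-JARID1A 37 of them fell and in NUP98-NSD1 21. Mcm5, a subunit of the replicative helicase, was at 3055, 2845, 2991 and 3104 and then at 1443, 1779 and 1414 in NUP98-JARID1A. In NUP98-NSD1 it was at 2568, 2452, 2788 and 2318 and then at 2166, 1839 and 2162. It fell in both without overlap, by 0.96 and 0.30, and the difference was -0.66 ± 0.12 (adjusted p = 0.000409). Pold2, a polymerase subunit (-0.82), Tk1, thymidine kinase (-0.66), Uhrf1 (-0.58), Mcm7 (-0.58) and Lig1, DNA ligase (-0.54), were lower too. Without NUP98-JARID1A day 5 replicate 1 the count of lower genes was 22. With the replicate block it was 2, and Mcm5 (adjusted p = 0.0689), Uhrf1, Mcm7 and Lig1 lost their calls. E2F-type motifs (TTTCCCGC or TTTGGCGC, both strands) lay in 2 of 14 windows (14.3%) of the called members and in 9 of 24 (37.5%) of the others. They lay in 1.56% of all windows and in 2.92% of those of tested genes. The stretch of Mcm5 at chr8:75109335-75109392 is shown since it holds the motif, in capitals, as its reverse complement.
Mcm5: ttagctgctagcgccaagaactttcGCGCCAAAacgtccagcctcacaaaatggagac

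Of 31 mitosis genes, Bub1b (-0.46) and Ccnb2 (-0.40) were lower (6.45%, beside 5.99% of all genes). There were 7 without NUP98-JARID1A day 5 replicate 1 and none without replicate 3 of that group. Ccnb2 lost its call in 10 of the 14 fits that each left out 1 library. Among 21 genes of the G1 phase, Cdkn2c and Cdk4 were lower (9.52%, beside 5.99% of all genes) and Cdkn2a higher (4.76%, beside 5.6%). Cdkn2c, an inhibitor of CDK4 and CDK6 (Entrez 12580), was at 1457, 1366, 1538 and 1354 and then at 613, 641 and 488 in NUP98-JARID1A. In NUP98-NSD1 it was at 470, 443, 401 and 499 and then at 588, 641 and 543. It fell in the first and rose in the second, both without overlap, to a like level at day 5 (-1.69 ± 0.16, adjusted p = 5.19e-08). Cdk4 fell from 6416 to 3060 and from 5850 to 4016 by the means (-0.53). Cdkn2a, the locus of a CDK inhibitor and of ARF, was at 103 to 114 and 121 to 210 in NUP98-JARID1A and at 92.0 to 187 and 36.4 to 92.3 in NUP98-NSD1 (2.07).

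Lysosome genes were higher in NUP98-JARID1A in 13 of 32 (40.6%, beside 5.6% of all genes) and lower in none (median 0.46). In that model 20 rose and none fell (median 0.54), and in NUP98-NSD1 9 rose and 3 fell (median 0.07). Of all genes, 20.1% rose and 21.2% fell in the first, and 13.5% rose and 11.9% fell in the second. Ctsb, the protease cathepsin B, was at 6760, 7681, 7158 and 6919 and then at 13603, 13984 and 15430 in NUP98-JARID1A. NUP98-NSD1 had 12246, 15056, 12675 and 13792 and then 13990, 15395 and 15036. The NUP98-JARID1A groups did not overlap and those of NUP98-NSD1 did, and the difference was 0.86 ± 0.13 (adjusted p = 7.67e-05). Ctsl, cathepsin L, went from 118 to 248 up to 401 to 1102, against 937 to 1187 and 727 to 1315 (2.0). Gaa, the lysosomal glucosidase, fell in NUP98-NSD1 (0.97), and so did Tpp1, a peptidase (0.81). Psap, the saposin precursor (0.96), Ctsd (0.87), the cholesterol exporter Npc1 (0.77) and the membrane protein Lamp1 (0.64) were further members. The count of 13 was 8 without the untreated NUP98-JARID1A replicate 1, 8 and 7 without its day 5 replicates 2 and 3, and 6 with untreated libraries titled day 5 only. It was 8 higher and 1 lower with quantile normalization, and with total-count scaling the median was 0.33.

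The E-box CACGTG lay in 4 of 10 windows (40.0%) of called lysosome members and in 7 of 18 (38.9%) of the others, beside the shares of all windows above. The stretches below are from called members, with the E-box in capitals on the gene's strand. They are Ctsd at chr7:142388042-142388077, Lamp1 at chr8:13159075-13159130 and Gaa at chr11:119267798-119267853.
Ctsd: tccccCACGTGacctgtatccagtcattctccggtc
Lamp1: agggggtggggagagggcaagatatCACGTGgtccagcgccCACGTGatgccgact
Gaa: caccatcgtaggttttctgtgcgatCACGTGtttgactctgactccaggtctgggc

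Of 11 lipid efflux genes, Apoe and Nr1h3 were higher (18.2%, beside 5.6% of all genes) and Pltp lower (9.09%, beside 5.99%). Nr1h3, a receptor for oxysterols, differed by 2.87 at 18.9 or fewer normalized counts. Its call was lost in 5 of the 14 fits that each left out 1 library. Among 21 p53 target and apoptosis genes 3 were higher (14.3%, beside 5.6% of all genes) and none lower (median 0.50). Bcl2l11, which encodes the death-promoting protein BIM, was at 541, 725, 600 and 672 and then at 1993, 1874 and 2006 in NUP98-JARID1A, and at 1301 to 1391 and 1554 to 1803 in NUP98-NSD1. It rose in the first (1.63) and the difference was 1.33 ± 0.17 (adjusted p = 3.73e-06). Zmat3 went from 156 to 605 and from 388 to 466 by the means (1.71), and Sesn1 rose from 345 to 622 in NUP98-JARID1A and fell from 1182 to 671 in NUP98-NSD1 (1.71).

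Of 28 ATF4 target genes, 2 were higher (7.14%, beside 5.6% of all genes) and 3 lower (10.7%, beside 5.99%). The higher ones were Slc38a2 (1.05) and Nupr1 (1.38), and the lower ones Slc7a5 (-1.10), Psat1 (-0.75) and Shmt2 (-0.65). Nupr1 lost its call in 6 of the 14 fits that each left out 1 library. Slc7a5 and Psat1 lost theirs without NUP98-NSD1 day 5 replicate 1 and without NUP98-JARID1A day 5 replicate 3, Slc7a5 also without untreated NUP98-JARID1A replicate 4 (adjusted p up to 0.0942) and Psat1 also without NUP98-NSD1 day 5 replicate 3 (up to 0.115). Of 22 inflammatory cytokine and chemokine genes, Tnf and Ccl2 were higher (9.09%, beside 5.6% of all genes). The difference of Ccl2 was 1.99, with adjusted p of 0.00545 to 0.0721 over the fits that each left out 1 library. Of 37 interferon genes, Ifit2 was lower (2.7%, beside 5.99% of all genes). Its difference was -0.91 (adjusted p = 0.0495, lost in 13 of the 14 fits that each left out 1 library). The median interferon change was -1.51 in NUP98-NSD1 day 5 replicate 1 and 0.32 and 0.72 in the other two. None of 22 immediate early genes differed by limma, edgeR or DESeq2, and 3 had an unadjusted p under 0.05 in limma. Their median change was 1.26 in NUP98-JARID1A and 1.28 in NUP98-NSD1. Pfkm, a glycolytic kinase, was the 1 lower gene of 20 in glycolysis (-1.03), and Sqle, squalene epoxidase, the 1 of 22 in cholesterol synthesis (-1.07). They are 5.0% and 4.55% of their lists, beside 5.99% of all genes, and lost their calls in 8 and 7 of those fits. Of 18 integrin genes, Itgb5 and Itga6 (0.93) were higher and Itgax and Itga2 (-2.25) lower. That is 11.1% each way, beside 5.6% and 5.99% of all genes. Itga2 did not pass in edgeR (adjusted p = 0.3) or DESeq2 (0.237). Of 27 cytokine receptor genes, Tnfrsf1b (0.95) was higher and Flt3 lower, 3.7% each way, beside 5.6% and 5.99% of all genes. Of 18 fusion partner and related chromatin genes, the export factor Rae1 was lower (-0.41) and none was higher. It is 5.56% of the list, beside 5.99% of all genes. Itga2 lost its call in 10 of those fits. Tnfrsf1b lost it without NUP98-NSD1 day 5 replicate 1 (and Rae1 without replicate 3), and both lost it without NUP98-JARID1A day 5 replicate 3, with adjusted p up to 0.0821 and 0.0737.

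The libraries after 3 days of doxycycline share the untreated libraries with those of day 5, so the values are given side by side. At day 3, 671 genes (5.29%) differed, 370 higher and 301 lower. Some genes were already apart: the difference was 2.85 at day 3 and 3.03 at day 5 for Tnf, 4.13 and 3.73 for Gpnmb, -3.67 and -3.43 for Hmga2 and -1.32 and -1.69 for Cdkn2c. For Itgb5 it was 2.01 and then 3.20, for Tcf7 3.73 and 6.78, and for Gata3 -4.15 and -7.03. Others passed at day 5 and not at day 3, with -1.43 and -6.41 for Cdh17, -1.37 and -4.65 for Fads2, -0.86 and -3.25 for Flt3, 1.71 and 4.05 for C1qb, 0.95 and 2.38 for Elane and -0.32 and -2.03 for Hoxa7. Whether the differences at both days differ was not tested. By list, 8 of 32 lysosome genes were higher at day 3, and 3 of 40 DNA replication and 3 of 34 ribosome biogenesis genes were lower. Of 30 monocyte and macrophage genes, 6 were higher and 1 lower. Over all genes these counts were 370 higher and 301 lower of 12682.

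**Figure D5:**
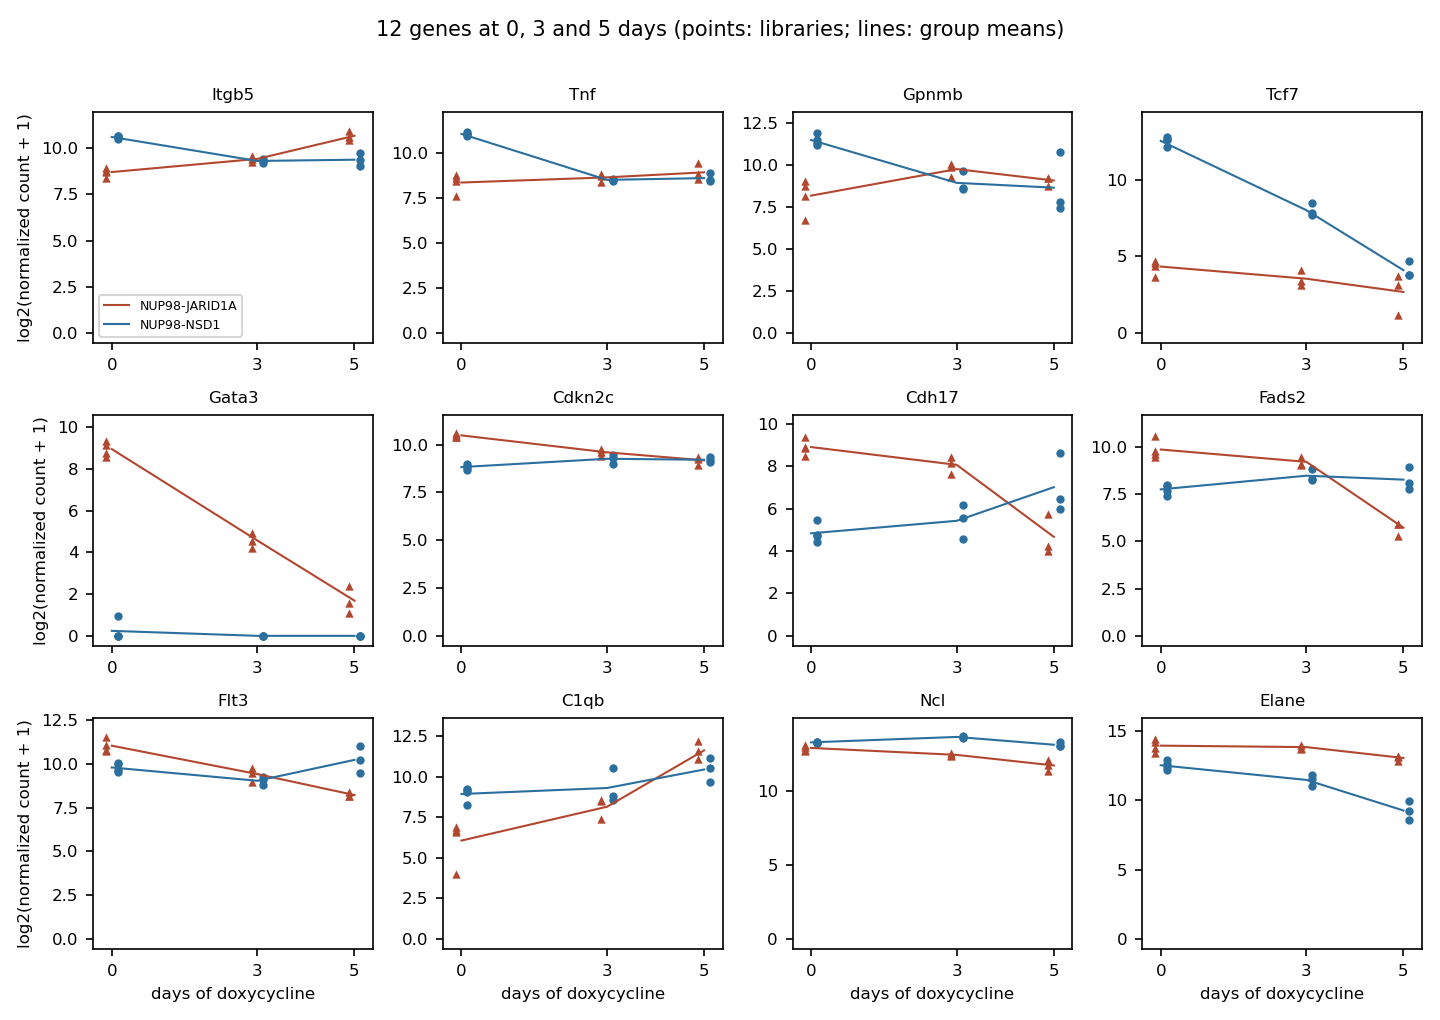
Course of 12 genes over 0, 3 and 5 days of doxycycline as log2(normalized count + 1), with points for libraries and lines for group means, red for NUP98-JARID1A and blue for NUP98-NSD1. Tnf and Cdkn2c reach a like level in both models by day 3, and Tcf7 and Gata3 fall at both steps. The models start apart in Cdh17, Fads2 and Flt3, whose changes passed the test of a difference at day 5 and not at day 3.

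Markers of other cell types that the sort could hold were mixed. Under 10 normalized counts in all 14 libraries were 11 of 20 T and NK cell genes, 7 of 13 endothelial and stromal genes, 8 of 17 erythroid genes, 8 of 14 basophil and mast cell genes, 6 of 10 megakaryocyte genes, 4 of 8 eosinophil genes and 4 of 16 B cell genes. Others were abundant: the B cell receptor gene Cd79b reached 1927, the T cell co-receptor gene Cd28 1817, the histamine synthesis gene Hdc 2859, the eosinophil lectin gene Siglecf 1432 and the adhesion gene Pecam1 3412. The summed T and NK cell level, with Tcf7, Klrb1c and Gata3 in the list, was 2494 to 2921 in untreated NUP98-JARID1A and 167 to 275 at day 5, against 5252 to 9024 and 287 to 702 in NUP98-NSD1. The summed basophil and mast cell level went from 3222 to 4351 to 1496 to 3208 and from 758 to 1046 to 242 to 398. The part of such cells in the results was not tested. The globin genes Hba-a1, Hba-a2, Hbb-bs and Hbb-bt were listed at 0 in all 14 libraries, as were 4 of 14 basophil and mast cell genes, while the erythroid genes Slc4a1 and Alas2 reached 205 and 140. The T cell gene Cd3e reached at most 1.90 and the NK cell gene Ncr1 0.984 normalized counts. Members that differed were Car1 of 13 erythroid genes (-2.27) and Rag2 (-4.73) and Igll1 (-3.87) of 16 B cell genes. Others were Cpa3 (-3.19) and Il1rl1 (-2.55) of 12 basophil and mast cell genes. All were lower, in 7.69%, 12.5% and 16.7% of these lists, beside 5.99% of all genes. Car1 lost its call in 10 of the 14 fits that each left out 1 library. Of 20 T and NK cell genes, Tcf7 was higher and Gata3, Klrb1c, Klrd1 (-2.53) and Il7r (-2.43) lower. Il7r, the interleukin 7 receptor, went from 86.6 to 211 down to 2.23 to 9.12 in NUP98-JARID1A and from 90.2 to 119 down to 12.9 to 40.9 in NUP98-NSD1. Igll1, a surrogate light chain, was at 7.53, 102 and 6.89 in NUP98-NSD1 at day 5, so that replicate 2 alone was high. Cpa3, a mast cell protease gene also found in progenitors, fell in NUP98-JARID1A from 219 to 509 to 14.5 to 26.1 and was at 3.75 or below in NUP98-NSD1. Its difference did not pass in edgeR (adjusted p = 0.341) or DESeq2 (0.067), nor did that of Car1 (0.402 and 0.106). Of 7 endothelial and stromal genes tested, Pdgfrb was lower (14.3%, beside 5.99% of all genes) and none was higher. Pdgfrb, a stromal growth factor receptor, fell from 468 to 752 to 10.3 to 27.9 and from 18.8 to 33.8 to 4.31 to 8.85 (-3.17). None of 8 eosinophil, 6 megakaryocyte or 7 NADPH oxidase genes differed by limma. At an unadjusted p under 0.05 there were 0, 2 and 2, and edgeR and DESeq2 each called 1 NADPH oxidase gene.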

How the data were processed

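Sorted bone marrow cells were profiled by poly-A RNA-seq. The signal analysed is the normalized count per gene that the authors deposited: reads aligned with STAR, handled with SAMtools, counted with featureCounts and scaled with DESeq2, on GRCm38, per the submitters' processing notes. Versions and the use of strand are not given in the sources used here. Normalization to a common median can hide a change in total RNA. The deposited values gave whole reads when divided by the worth of 1 read, in 100% of values within 0.01 reads.

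Values were tested as log2(value + 1) with limma 3.58.1 (R 4.3.3): 10 group means over 33 libraries, with trend, over 12687 features (12682 genes and 5 constructs) at 10 or more in at least 3 libraries, and Benjamini-Hochberg adjustment. All log2 changes and differences are on that scale, which understates low genes. Fold values given by the means are ratios of group means of the normalized counts. Every adjusted p is from limma unless another tool is named. Alternatives were edgeR 4.0.16 and DESeq2 1.42.0 on the recovered reads, other scalings, filters, pseudocounts and libraries. The steps were tested on simulated data. The genes named were the constructs, the fusion partners and Cdk6, the 15 with the largest difference each way (adjusted p under 0.05, mean of at least 100 over the 14 libraries), up to 4 per gene list with the smallest adjusted p, and 5 each way among those called in opposite directions. Kit, Meis1, Hoxa9, Myc, Mpo, H2-Aa, Spi1, Lyz2 and further list members given as examples were added after their values were seen. The comparison, the members and the gene lists were chosen with earlier results of these data known. Motifs were searched in RefSeq windows of GRCm38.p6. Other fusions and the chromatin samples were not used here. A few list members are counted in their lists and not reported here by name.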

Additional observations from a re-analysis of the deposited data

Results flagged for a closer look

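In 9 of 206 untreated groups of 4 libraries tested, 1 library lay far from the others by Dixon's criterion (critical value 0.829), which chance gives in about 1 of 20 groups. The untreated NUP98-JARID1A replicate 1 was the low library for eGFP (9450, the others 12320 to 12506), C1qa (1.01 against 11.6 to 12.6) and Apoe (615 against 856 to 862), and the high one for Igll1 (17.2 against 7.22 to 7.74). Replicate 4 of that group was high for Siglech (300 against 38.4 to 82.2) and Il7r (211 against 86.6 to 106), and replicate 2 for Rai14 (21.7 against 9.1 to 10.6). The untreated NUP98-NSD1 replicate 4 was low for Prune2 (115 against 159 to 163) and Itsn1 (198 against 248 to 249).

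The change at day 5 differed between the models in 1470 genes by the test of the difference itself. The feature of NUP98-HOXA9, a fusion that no sample analysed here is labelled with, had up to 24 reads in an untreated NUP98-JARID1A library and 56 reads over the 4, with 32 over the 4 untreated NUP98-NSD1 libraries, 5 and 3 over the day 5 libraries, and 0 in the control libraries.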

How the results depend on the processing

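The counts of 710 higher and 760 lower genes were 676 and 642 with the 14 libraries fitted alone, 814 and 625 with TMM factors, 648 and 684 with quantile normalization, 752 and 562 by edgeR and 833 and 797 by DESeq2. Without the control libraries they were 1180 and 1173, and with untreated libraries titled day 5 only 468 and 543. Leaving out 1 library gave 541 to 930 higher and 580 to 1146 lower genes. With the replicate block 478 were higher and 445 lower. Same-numbered libraries had deviation correlations of 0.34, 0.14 and 0.10 in NUP98-JARID1A and 0.14, 0.04 and 0.25 in NUP98-NSD1, and not every library correlated best with its own number, so the numbers were not taken as a pairing. Under the replicate block 31 of the 103 named genes past the test lost their call (adjusted p 0.0541 to 0.255), among them Mcm5 (0.0689), Uhrf1, Mcm7, Lig1, Ncl (0.0819), Nolc1, Cdk4, Cdkn2a, Irf4, Cd209a, H2-Oa, Fn1 (0.168) and Il7r. The lists then had 2 of 40 DNA replication, 4 of 34 ribosome biogenesis and 3 of 14 dendritic cell genes lower, and 7 of 32 lysosome genes higher. Total-count scaling, added after seeing the data, gave 1464 genes that rose and 4571 that fell in NUP98-JARID1A, and 2134 genes higher in it at day 5. The day 3 difference was 699 higher and 586 lower without the control libraries. The causes were not tested.

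Of the 103 named genes past the test, 56 kept their call under every alternative run, none changed direction, and 201 of 2673 values no longer passed. Direction changed for genes that had not passed. Total-count scaling gave -0.02 for Kdm5a, -0.11 for Nup98 and -0.02 for Spi1, and quantile normalization gave -0.06 for Nup98, -0.27 for Lyz2, 0.04 for Meis1 and -0.09 for Spi1. For Nup98, the replicate block and untreated libraries titled day 5 only both gave -0.08, and TMM factors gave 0.02 for H2-Aa. Leaving out 1 library gave -0.25 to 0.16 for Cdk6, -0.09 to 0.30 for Kdm5a, -0.07 to 0.09 for Nup98, -1.15 to 0.72 for H2-Aa, -0.01 to 0.35 for Kit, -0.23 to 0.04 for Meis1 and -0.14 to 0.38 for Spi1. In edgeR 16 of the 103 did not pass, among them both fusion transcripts, Gata3, Foxf1, Nkx2-3, Hoxb5os, Hoxb6, Muc13, Klrb1c, Slc22a3 and Cpa3, which had few or no reads in 1 model. In DESeq2 6 did not pass: Hoxb5os, Hoxb6, Klrb1c, Cpa3, Itga2 and Car1. With the 14 libraries fitted alone 15 did not pass, among them Fn1, Irf4, Klf4, Ccl2, Itgax and Igll1.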
